A study of Homo sapiens with 4 samples.

Results

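Metallothioneins and the genes that move zinc across membranes were followed in Caco-2 cells, a human colorectal adenocarcinoma line that forms an enterocyte-like layer in culture. The group holds 10 listed genes, which are MT1E, MT1F, MT1G, MT1H, MT1M, MT1X and MT2A, the metal-responsive transcription factor MTF1, the zinc exporter SLC30A1 and the metal importer SLC39A14. They were selected on measured values of the same comparison described here, since MT1X rose from 0 counts in it, and their own differences are therefore given as a description: where a member is said to be called, this only says on which side of the thresholds it fell. Of the 10 genes, 9 have a row among the 37515 genes of the count table, 6 passed the filter on low counts, and MT1M was not analysed here.

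RNA sequencing was done on 4 libraries of cells labelled wild type (WT), 2 from unstimulated cells labelled 0 h that received medium alone and 2 from cells given 60 ng/ml IFNγ for 3 h. All cells had been grown in transwells for 15 days, and the IFNγ was added to the basal compartment. The comparison asks how the cytokine of activated T cells changes expression in intestinal epithelium, but the groups differ in both IFNγ and time, and these cannot be told apart. The labels do not say whether the 2 libraries of a group came from separate cultures, so the spread between them may be technical. Caco-2 is a single cancer cell line, and the cells in these libraries are not primary enterocytes.

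Metallothioneins are small cysteine-rich proteins that bind zinc, copper and cadmium and buffer the free metal inside a cell. When free zinc rises, MTF1 binds it, enters the nucleus and acts on metal response elements (MREs) in the promoters of metallothionein genes and of SLC30A1, which exports zinc across the plasma membrane. SLC39A14 (ZIP14) carries zinc, iron and manganese into the cell and is known for its induction by inflammatory cytokines in liver, while intestinal epithelium is the tissue that absorbs dietary zinc.

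The libraries held 7171455 to 10365346 counts, so that 1 CPM (the unit of counts relative to library size, here scaled by the TMM factors) corresponded to 7.16 to 10.3 counts, and the 3 counts that a value of 0 allows correspond to 0.291 to 0.419 CPM. Intervals and these limits cover counting error only. Of the listed IFNγ-induced genes 7 of 9 tested were called higher, led by IRF1, which rose from 19.7 ± 0.631 to 1139 ± 82.1 CPM (SD, n = 2 libraries in each group). All 14 enterocyte and epithelial markers were tested, with APOA1 at 2835 to 3132 CPM and CDH17 at 1792 to 1900 CPM in the group means, while CDX2 was called higher and SI lower, and neither was called with the trend in GC content and length removed (SI also not by DESeq2 or without IFNγ replicate 2). Among markers of leukocytes, fibroblasts and endothelium 5 of 11 with a row were tested and 0 were called by edgeR or DESeq2, with 1 at an unadjusted p under 0.05, and their summed level was 107 to 198 CPM unstimulated and 140 to 184 CPM at 3 h. PTPRC, COL1A2, DCN and CDH5 had at most 2 counts in any library, and COL1A1 and COL3A1 made up most of the sum. Log2 fold changes rose with the GC content of a gene (Spearman rho 0.436 across 14518 genes, which are not independent replicates), and the part of this in any result below was not tested beyond the values given.

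Across the 14820 tested genes 2.88% were called higher and 4.40% lower, where a call needs an adjusted p under 0.05 in edgeR's quasi-likelihood test and an absolute log2 fold change above 1. Without the fold threshold these shares were 9.02% and 11.0%. At an unadjusted p under 0.05 in that test, 2454 of the 14820 genes were higher and 2785 lower, the background for such counts in any list. Of the 6 tested members, 2 were called higher, MT2A and MT1X, and 0 were called lower, with 0 at an unadjusted p under 0.05 in that direction and 0 by DESeq2. MTF1 passed the adjusted p alone in edgeR, and did not pass it in DESeq2. MT2A and MT1X passed the filter on low counts only through the 3 h libraries, where they are high. DESeq2 gave MT2A and MT1X no adjusted p under its default filter on low means, and called both once that filter was off. All 6 had a positive log2 fold change, with a median of 0.90 against -0.01 over all tested genes, and in 5 of 6 both IFNγ libraries lay above both unstimulated ones, as they did in 31.6% of tested genes, while 30.8% were separated the other way. Because this contrast chose the members, nothing is read from these counts. In bulk samples more cells that express a gene and more of its RNA per cell cannot be told apart.

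MT2A encodes a metallothionein that most human tissues express, and it had the highest CPM of the family at 3 h. Without stimulation 2 and 5 reads were counted for it, and 59 and 38 at 3 h, which are 0.194, 0.698, 5.72 and 5.17 CPM. The 3 h libraries were thus close to each other and far above the unstimulated ones. Its mean rose from 0.446 ± 0.357 to 5.44 ± 0.391 CPM, a log2 fold change of 3.70 (SE 0.51). The ratio of pooled counts per scaled library was 13.7, with a 95% interval from counting error of 6.40 to 35.0, and leaving out a library moved the log2 fold change between 2.94 and 4.72.

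MT1X, another metal-binding isoform of the same cluster, went from 0 counts in both unstimulated libraries to 27 and 11 at 3 h. In CPM this was 0 in both and then 2.62 and 1.50, a mean of 2.06 ± 0.793. Its mean 3 h level was 5.79-fold the mean of the limits set by the 3 counts per library that a value of 0 allows. The counting error of the 3 h libraries is not in this ratio. Replicate 1 was the higher of the 3 h libraries, and the groups did not overlap. MT1E followed the same pattern at a lower level, with 0 counts in both unstimulated libraries and 6 in each of the 3 h libraries. That is 0.582 and 0.816 CPM, with a mean 1.97-fold the same limit, and MT1E fell under the filter and was not tested.

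MT1F was the metallothionein with the most reads in unstimulated cells. Its counts were 15 and 14 unstimulated and 44 and 25 at 3 h, or 1.46, 1.96, 4.27 and 3.40 CPM. All values at 3 h lay above those at 0 h, the means being 1.71 ± 0.353 and 3.83 ± 0.612 CPM. The log2 fold change was 1.19 (SE 0.361). It was not called in the main setting, and it was with upper quartile scaling, without the filter on low counts and with at least 10 counts in every library. The ratio of pooled counts was 2.35 with an interval of 1.50 to 3.77. MT1G, expressed in many epithelia, had 1 and 0 counts unstimulated and 2 and 3 at 3 h, with a ratio of 4.94 and an interval of 0.553 to 234. MT1H was at 0 in all 4 libraries, which at this depth allows levels of up to 0.291 to 0.419 CPM.

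Summed over the 6 metallothioneins with a row, the counts were 18 and 19 unstimulated and 138 and 83 at 3 h. The summed level was 2.20 ± 0.641 CPM at 0 h and 12.3 ± 1.48 CPM at 3 h, a ratio of 5.61, and the same-numbered libraries gave 7.66 and 4.25. The make-up of the sum differed as well. Because this contrast chose the members, with MT1X rising from 0 counts in it, the sum, its ratio and these shares are a description. MT1F took 83.3% of it (exact Clopper-Pearson interval 58.6 to 96.4%) and 73.7% (48.8 to 90.9%) in the unstimulated libraries, and 31.9% (24.2 to 40.4%) and 30.1% (20.5 to 41.2%) at 3 h. MT2A took 11.1% and 26.3% before and 42.8% (34.4 to 51.5%) and 45.8% (34.8 to 57.1%) after. MT1X supplied 19.6% (13.3 to 27.2%) and 13.3% (6.81 to 22.5%) of the 3 h counts and none of the unstimulated ones. A single gene therefore held most of the few metallothionein reads at 0 h, and MT2A, MT1F and MT1X shared most of them at 3 h.

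**Figure D1:**
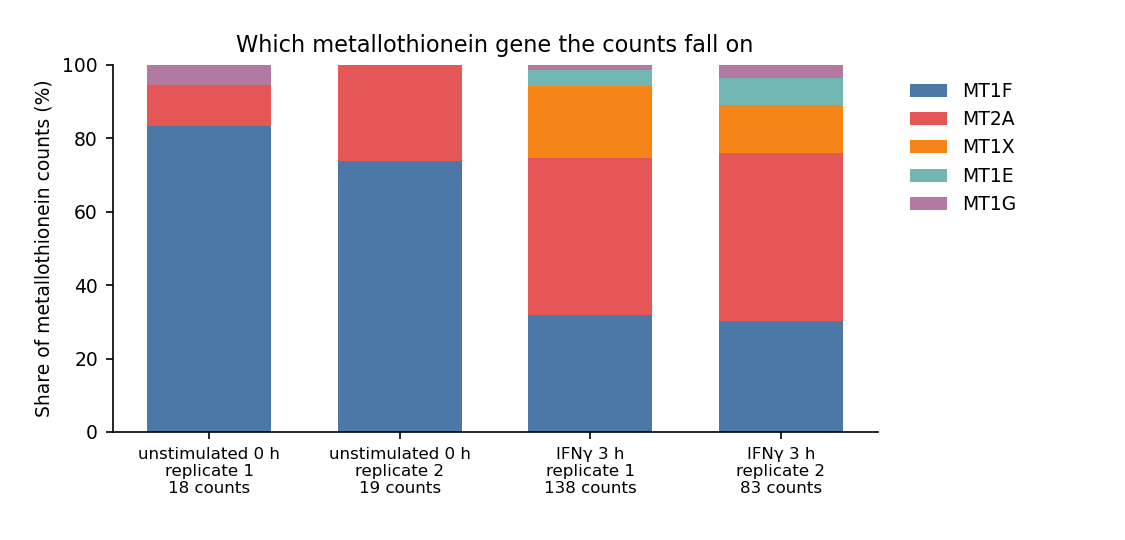
Share of metallothionein counts (vertical axis, %) that fell on each gene in the 4 libraries, with the number of counts under each bar. MT1F fills most of both unstimulated bars, and MT2A with MT1X fills more than MT1F in both 3 h bars.

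**Figure D2:**
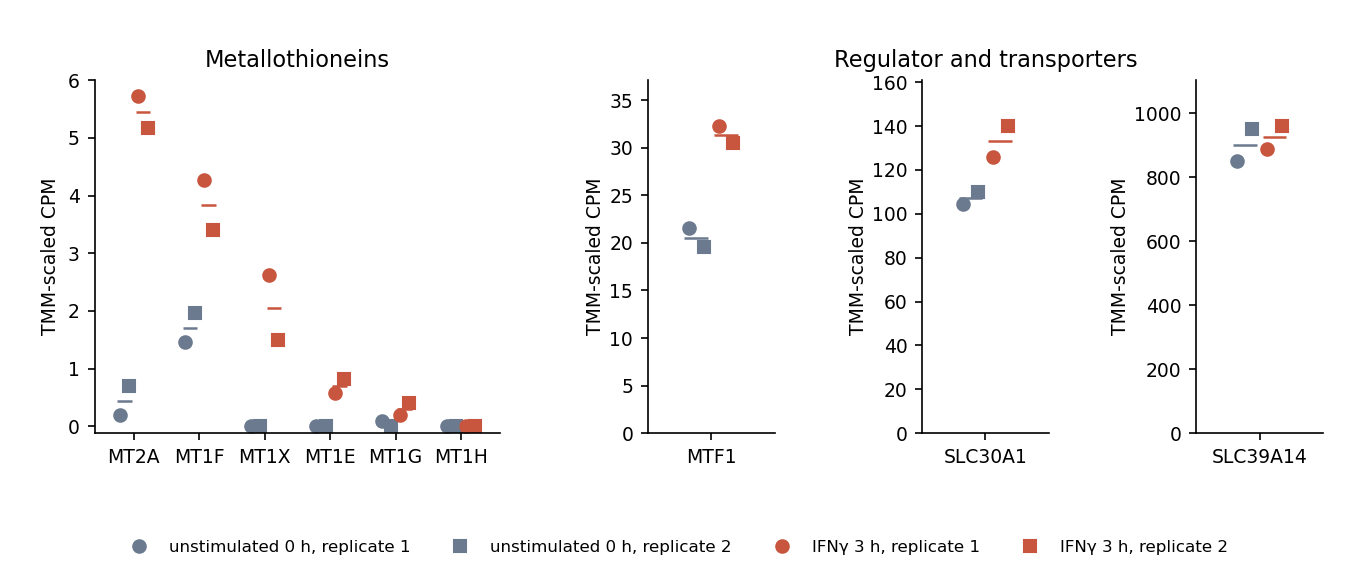
Level of each member (vertical axes, TMM-scaled CPM, each panel with its own axis) in the unstimulated 0 h libraries (grey) and the IFNγ 3 h libraries (red), where circles are replicate 1, squares replicate 2 and short lines group means. MT2A, MT1F, MT1X, MT1E, MT1G, MTF1 and SLC30A1 are separated between groups, while the SLC39A14 libraries overlap. MT1E and MT1G had at most 6 counts in any library and were not tested.

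The metallothionein genes lie together on chromosome 16, and sequence shared among them bears on how far reads can be assigned to one of them. In GRCh37 (GENCODE 44 lifted to that build, not necessarily the annotation used for counting) MT2A spans 56642496 to 56643409, MT1E 56659387 to 56661024, MT1M 56666571 to 56667893 and MT1F 56691643 to 56694610, followed by MT1H at 56703726 to 56705041 and MT1X at 56716382 to 56718108, all on the plus strand, and MT1G at 56700642 to 56701977 on the minus strand. Of the 50-base words in each gene's transcripts, 7.10% of MT1E, 1.24% of MT1F, 16.4% of MT1G, 15.8% of MT1H, 3.73% of MT1X and 4.48% of MT2A also occur in transcripts of a gene at another place. Among the listed metallothioneins these shares were highest in MT1G, MT1H and MT1E, which also had the fewest reads. The words were pooled over all annotated transcripts of a gene, so long transcripts can lower its share and the order may depend on them. The split of reads among the metallothioneins is uncertain. MT1X also overlaps an unnamed gene on its own strand, which has no row in the table. Of the other metallothionein genes and pseudogenes that were listed, 6 of 10 had a row and 0 passed the filter, with at most 2 counts in any library for MT1A and at most 1 for MT1B and MT1CP.

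The promoters of the metallothioneins were read to show where MRE letters lie in MT2A and MT1X, in MT1H, which had no reads, and in SLC30A1. RefSeq's GRCh38.p14 promoter table, which holds windows of 300 bases from 250 before to 50 after each start, had an entry for 5 of the 10 members, MT1H, MT1X, MT2A, MTF1 and SLC30A1. The MRE core was searched as TGCACNC or TGCGCNC on both strands, and at least 1 match was found in 29.6% of all 35116 promoters, at least 4 in 0.601% and at least 8 in 0.0199%. MT2A and MT1H held 8 matches each, MT1X held 4, SLC30A1 held 2 and MTF1 held none. The 250 bases before the start are printed 5′ to 3′ on the strand of the gene with the matches in capitals, for MT2A (chr16:56608334-56608583, plus strand), MT1X (chr16:56682220-56682469, plus strand), MT1H (chr16:56669564-56669813, plus strand) and SLC30A1 (chr1:211579162-211579411, minus strand).
MT2A: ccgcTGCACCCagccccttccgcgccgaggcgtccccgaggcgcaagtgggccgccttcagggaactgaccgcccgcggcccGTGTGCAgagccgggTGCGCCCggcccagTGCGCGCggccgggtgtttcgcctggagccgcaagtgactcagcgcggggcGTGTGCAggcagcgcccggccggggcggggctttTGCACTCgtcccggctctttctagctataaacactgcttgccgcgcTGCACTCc
MT1X: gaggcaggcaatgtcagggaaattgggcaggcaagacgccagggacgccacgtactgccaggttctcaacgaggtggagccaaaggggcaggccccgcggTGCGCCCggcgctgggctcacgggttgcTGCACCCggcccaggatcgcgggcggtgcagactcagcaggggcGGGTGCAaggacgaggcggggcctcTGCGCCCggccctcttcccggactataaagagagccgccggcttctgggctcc
MT1H: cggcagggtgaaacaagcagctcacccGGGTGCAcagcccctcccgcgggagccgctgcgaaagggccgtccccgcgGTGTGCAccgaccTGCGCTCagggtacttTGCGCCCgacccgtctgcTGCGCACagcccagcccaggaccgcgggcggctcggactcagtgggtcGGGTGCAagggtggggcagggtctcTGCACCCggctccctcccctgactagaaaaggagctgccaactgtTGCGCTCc
SLC30A1: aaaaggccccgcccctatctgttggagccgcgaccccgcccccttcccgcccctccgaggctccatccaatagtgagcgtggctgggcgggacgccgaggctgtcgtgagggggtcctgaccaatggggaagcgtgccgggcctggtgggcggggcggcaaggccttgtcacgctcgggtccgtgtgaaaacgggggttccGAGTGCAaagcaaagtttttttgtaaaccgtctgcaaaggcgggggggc
Some of the matches lay at like distances from the start in the 3 metallothioneins, and others did not. MT1X and MT1H both had a match at -53 to -47 and another at -78 to -72, counted from the base before the start as -1, and MT2A had matches at -54 to -48 and -88 to -82. MT2A and MT1H shared a match at -8 to -2. The SLC30A1 match printed lies at -49 to -43. The remaining match of SLC30A1 is at +25 to +31 and the remaining match of MT2A at +31 to +37, after the start. MT1H, with as many matches as MT2A, was at 0 counts in all libraries, and any link between matches and level was not tested.

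**Figure D3:**
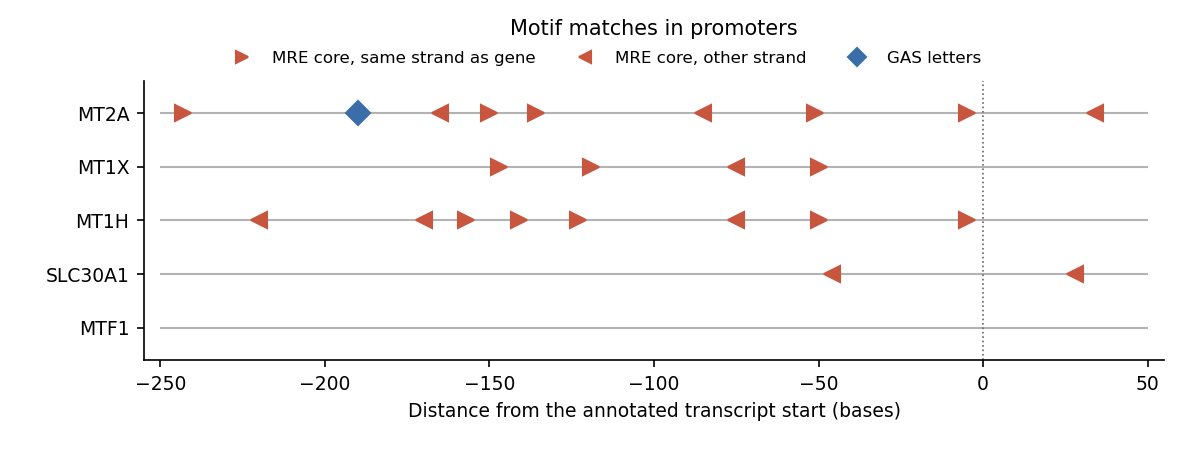
Position of motif matches in the 5 promoter windows, as distance in bases from the annotated start (dotted line). Red triangles are MRE core matches pointing along their strand, and the blue diamond is the GAS match of MT2A. MT2A and MT1H carry 8 MRE matches each, MT1X 4, SLC30A1 2 and MTF1 none.

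The letters of IFNγ-linked elements were searched on both strands of the same windows. The gamma-activated sequence (GAS), searched as TTCNNNGAA, was in 7.66% of all promoters and, among the 5 members, in MT2A alone at -194 to -186. The interferon-stimulated response element, searched as GAAA followed by any pair of bases and GAAA again, was in 3.57% of all promoters and in none of the 5. Outside the members, 84 tested genes had at least 4 MRE matches, and 1 of these was called higher and 5 lower, shares of 1.19% and 5.95%. The gene called higher was KLF13, with a log2 fold change of 1.14. Those called lower were INTS13, ANKRD26, AGTPBP1, GUCY1A2 and INSIG1-DT, and all were named after their values were seen. Among 6475 tested genes with 0 MRE matches the shares were 2.63% higher and 5.22% lower. For 665 tested genes with GAS letters they were 4.51% and 6.77%. Differences between these shares were not tested. A match is a run of letters and not a shown binding site.

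MTF1, the zinc sensor itself, is on the minus strand of chromosome 1 at 38275246 to 38325264 in GRCh37. It had 222 and 140 counts unstimulated and 333 and 224 at 3 h, which are 21.5, 19.6, 32.3 and 30.5 CPM. Both 3 h libraries were above both unstimulated ones, and the means were 20.6 ± 1.41 and 31.4 ± 1.29 CPM. Its log2 fold change was 0.61 (SE 0.147), with 0.58 and 0.63 in the same-numbered libraries, which is under the fold threshold. Leaving out a library moved this log2 fold change between 0.54 and 0.68. The adjusted p of MTF1 was under 0.05 in edgeR but not in DESeq2. SLC30A1 lies on the same chromosome and strand at 211744910 to 211752503. It had 1076 and 786 counts unstimulated and 1300 and 1030 at 3 h, at 104, 110, 126 and 140 CPM. The groups did not overlap, with means of 107 ± 3.77 and 133 ± 9.93 CPM, but the difference was small, a log2 fold change of 0.31 (SE 0.117). Removing the trend with GC content and length raised it to 0.72.

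SLC39A14 was by far the most abundant member and moved least. It is on chromosome 8 at 22224791 to 22291642, plus strand, in GRCh37, and had 8776 and 6818 counts unstimulated and 9163 and 7061 at 3 h. In CPM these were 852, 952, 889 and 960, so the higher unstimulated library lay above the lower 3 h library. The means were 902 ± 71.0 and 924 ± 50.9 CPM and the log2 fold change 0.04 (SE 0.113), whose sign turned with library size scaling (-0.01), with the GC and length trend removed (-0.12), and without unstimulated replicate 1 or IFNγ replicate 2 (-0.04 in either case).

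Levels of different genes were compared as CPM per kilobase of annotated exon. In the unstimulated cells the order of group means was SLC39A14 at 131, SLC30A1 at 18.2, MTF1 at 2.57, MT1F at 0.921, MT2A at 0.488 and MT1G at 0.0646 CPM per kb, with MT1E, MT1X and MT1H at 0. At 3 h SLC39A14 was at 134 and SLC30A1 at 22.6, and MT2A at 5.96 stood above MTF1 at 3.93, MT1F at 2.07, MT1X at 1.19, MT1E at 0.664 and MT1G at 0.401 CPM per kb. MT2A was thus below MTF1 at 0 h and above it at 3 h. The place of MT1F depends on the length used, because its annotated exons add up to 1852 bases and its median transcript is 420.5 bases long. Per kilobase of median transcript the 0 h levels were 4.06 for MT1F, 0.768 for MT2A and 4.92 for MTF1, and the 3 h levels were 9.12, 9.37 and 7.52, so that on this scale MT1F too was below MTF1 at 0 h and above it at 3 h. MT1F and MT2A at 3 h differed by less than their spread on this scale and are not ranked here.

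The other zinc exporters, the SLC30 (ZnT) family that loads zinc into vesicles and organelles or out of the cell, were tested in the same fit. Of 9 listed, 7 were tested and 0 were called by edgeR or DESeq2, with 1 higher and 4 lower at an unadjusted p under 0.05. SLC30A9 and SLC30A6, the most abundant, went from 92.7 ± 7.96 to 71.0 ± 7.34 CPM and from 63.7 ± 9.25 to 49.4 ± 2.70 CPM. In edgeR the log2 fold change was -0.38 for SLC30A9 (adjusted p 0.0859) and -0.36 for SLC30A6 (adjusted p 0.122). SLC30A7, which supplies zinc to the early secretory pathway and is named after its value was seen, fell by 0.53 on the log2 scale with an adjusted p of 0.0401 in edgeR, short of the fold threshold. With the GC and length trend removed its log2 fold change was 0.10 (adjusted p 0.718 in edgeR), and the adjusted p was 0.0638 in DESeq2. The median log2 fold change of the 7 was -0.38, with 6 of 7 negative, but it was 0.10, with 5 of 7 positive, once the trend with GC content and length was removed. SLC30A1 lay above 0 under either treatment.

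The other SLC39 (ZIP) importers gave 1 call among 12 tested of 13 listed. At an unadjusted p under 0.05 in edgeR there were 2 higher and 1 lower. SLC39A10, a plasma membrane zinc importer, had 586 and 517 counts unstimulated and 332 and 231 at 3 h. Both 3 h libraries were below both unstimulated ones, at a mean of 31.8 ± 0.546 CPM against 64.5 ± 10.8. It fell by 1.02 on the log2 scale (SE 0.156, adjusted p = 0.00562 in edgeR), at the very edge of the fold threshold. The call was lost when the fold slipped under that threshold, which was at -0.55 with the GC and length trend removed, -0.97 under upper quartile scaling, -0.998 without the filter on low counts and -0.84 without unstimulated replicate 2. The most abundant of the family, SLC39A5 on the basolateral membrane and SLC39A7 in the endoplasmic reticulum, differed by 0.16 (adjusted p 0.363) and 0.08 (adjusted p 0.694) on the log2 scale in edgeR. The median of the 12 was 0.12, with 7 of 12 positive, and -0.06 with the trend removed.

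**Figure D4:**
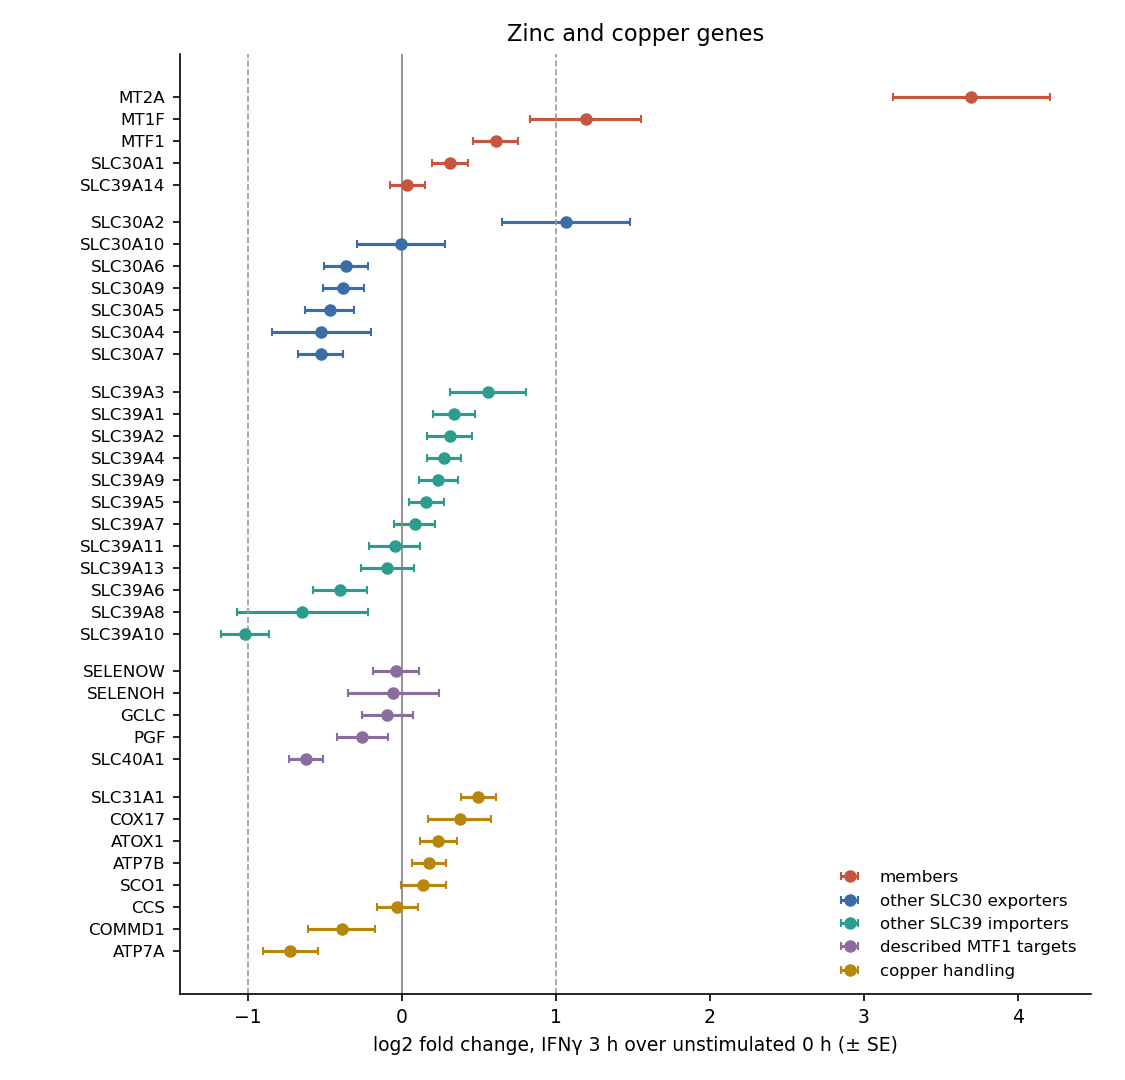
Log2 fold change at 3 h over 0 h (horizontal axis, ± SE) of the tested members without MT1X, whose fitted value depends on its 0 counts, and of other zinc and copper genes, with dashed lines at the fold threshold. MT2A at 3.70 stands to the right of every other gene shown, and SLC39A10 at -1.02 is the lowest.

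No gene described as an MTF1 target outside these families was called higher. Over all tested genes 2.88% were, so nothing is read from 0 calls among so few genes. Of 5 tested, all had a negative log2 fold change with a median of -0.10, 0 were called by edgeR or DESeq2, and 0 were higher and 1 lower at an unadjusted p under 0.05. The lower one was SLC40A1 (ferroportin, the iron exporter), the most abundant of them, which went from 604 ± 44.5 to 392 ± 11.1 CPM. It fell by 0.62 on the log2 scale with an adjusted p of 0.00926 in edgeR, and by 0.70 with the GC and length trend removed. GCLC, which makes the catalytic subunit of the enzyme that limits glutathione synthesis, was at 41.0 ± 5.75 and 38.4 ± 5.17 CPM.

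Copper handling genes were read because metallothioneins bind copper as well. Of 10 listed, 8 were tested and 0 were called by edgeR or DESeq2, with 1 higher and 1 lower at an unadjusted p under 0.05. SLC31A1 (CTR1), the copper importer and the most abundant of the list, rose from 181 ± 12.2 to 256 ± 8.26 CPM, a log2 fold change of 0.50 with an adjusted p of 0.0221 in edgeR. The copper exporter ATP7B was at 102 ± 2.33 and 115 ± 2.68 CPM (log2 fold change 0.18). ATP7A, named after its value was seen, fell by 0.72 on the log2 scale with an adjusted p of 0.0307 in edgeR. That adjusted p became 0.274 with the GC and length trend removed, and in DESeq2 it was not under 0.05.

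Metal, oxidant and heat stress also induce metallothioneins in other settings, and 10 of 12 listed genes of these responses were tested. HMOX1 (heme oxygenase 1) was called higher, from 77.1 ± 8.12 to 158 ± 18.9 CPM, a log2 fold change of 1.03 with an adjusted p of 0.00384 in edgeR. HMOX1 was also at the edge of the fold threshold, and its call was lost with library size only (0.99), with the GC and length trend removed (0.85), without unstimulated replicate 1 (0.93) and without IFNγ replicate 2 (0.89). HSPH1, a heat shock protein, was called lower, from 207 ± 40.5 to 102 ± 2.37 CPM (log2 fold change -1.02, adjusted p 0.00516 in edgeR). It lost this call with upper quartile scaling (-0.97), with the trend removed (-0.53) and without unstimulated replicate 2 (-0.81). HSPA8 and NQO1, the most abundant of the list, had log2 fold changes of 0.08 and -0.04. The median over the 10 was 0.02, with 5 positive and 5 negative.

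Glucocorticoids are a further known inducer of metallothioneins. Of 10 listed glucocorticoid-induced genes 9 were tested and 1 was called, SGK1, a kinase that acts on epithelial ion transport, which rose from 26.6 ± 0.863 to 66.4 ± 2.28 CPM (log2 fold change 1.32, adjusted p 0.00152 in edgeR). DUSP1, a phosphatase that acts on MAP kinases and is named after its value was seen, also passed the adjusted p (0.00612 in edgeR) at a log2 fold change of 0.94. At an unadjusted p under 0.05 there were 5 higher and 1 lower. ZFP36, an mRNA-decay factor and the most abundant of the list, had a log2 fold change of 0.38 with an adjusted p of 0.0822 in edgeR. The median of the 9 was 0.50 with 6 positive. Each list is described by its counts alone.

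The profile over the 4 libraries was compared with that of every other tested gene, as the Euclidean distance between log2 CPM profiles centred on the unstimulated mean. MT1X was at 0 counts in both unstimulated libraries, so its profile depends on the prior count added before taking logs. With a prior count of 2 the nearest genes were PSMB9, CXCL9, LRRC66, PSMB8-AS1 and BNIP5, and with a prior count of 0.5 only 1 of these 5 was still among the nearest 5. That gene was CXCL9, a chemokine, which had 0 and 0 counts unstimulated and 22 and 11 at 3 h, beside 27 and 11 for MT1X. The genes nearest to SLC39A14 were ENSG00000242951, FKBP1C, NFKBIL1, MRPS5 and TMEM248, at 0.0161 to 0.0234, all with log2 fold changes of 0.04 to 0.05, and 4 of them were among the nearest 5 with the other prior count. With 4 libraries such likeness says only that the values run alike.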

How the data were processed

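Libraries were prepared by the submitters from total RNA with the TruSeq kit. The deposited counts are raw reads per Ensembl gene, made by the authors without pooling replicates. HISAT 0.5.1 and HTSeq 0.6.1p1 are named in the submitters' processing notes, and the genome build and use of strand are not given in the sources used here. A symbol was found for 96.5% of identifiers, and 8158 genes had 0 counts in all libraries. Counts were tested with edgeR 4.0.16 in R 4.3.3 (quasi-likelihood, TMM scaling, default filter, no block), with Benjamini-Hochberg adjustment over 14820 genes. A gene was called at an adjusted p under 0.05 with a log2 fold change above 1 or under -1. Log2 ratios of same-numbered libraries used a prior count of 2. Alternatives were other scalings and filters, DESeq2 1.42.0, a replicate block, removal of a GC and length trend, and leaving out each library. DESeq2 without independent filtering, the median transcript length and nearest profiles with a prior count of 0.5 were added after the data were seen. The scripts were tested on simulated data.

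The members and gene lists were chosen with earlier results of these data known. The rule for genes named takes all members, and from each other list the called genes and the 2 with the highest mean CPM, plus the 5 profiles nearest to MT1X and SLC39A14. Some genes under this rule are not reported here.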

Additional observations from a re-analysis of the deposited data

How the results depend on the processing

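With 2 libraries a group and at most 19 metallothionein counts in a 0 h library, precision was limited by depth. Members called higher numbered 2, but 3 with upper quartile scaling (MT1F added) and without a fold threshold (MTF1 added), 4 without the filter on low counts, 1 with at least 10 counts in every library, where MT1X and MT2A were not tested, and 0 with DESeq2, which gave MT1X, MT2A and MT1F no adjusted p. DESeq2 without independent filtering called 2. Other zinc and copper genes called higher numbered 0, but 1 without the filter, with the replicate block and without a fold threshold. Those called lower numbered 1, but 0 with upper quartile scaling, no filter, the GC and length trend removed, and the replicate block with that trend removed, 4 without a fold threshold, and 0 to 1 when a library was left out (0 without unstimulated replicate 2). By their labels same-numbered libraries share only a number, but over the tested genes their deviations from the group means correlated at 0.415. Whether they share a batch or are paired was not tested. The replicate block called 492 genes higher and 896 lower and 3 members higher, MT1F being the one added.

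Over all genes 427 were called higher and 652 lower, against 1337 and 1626 without a fold threshold. With the GC and length trend removed 341 were lower and 54.0% of calls were higher, against 39.6%. Leaving out a library gave 504 to 1239 lower (1239 without IFNγ replicate 1). The log2 fold change of SLC39A14 was -0.0058 with library size only, -0.12 with the trend removed, -0.11 with the replicate block as well, and -0.043 to 0.12 when a library was left out. The ratio of MT2A to MTF1 per kilobase was 1.52, and 1.25 with the median transcript length. The causes were not tested.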

Other observations

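Processed pseudogenes of the metallothioneins, which carry copies of the spliced sequence elsewhere in the genome, also held a few reads. They were looked at after the values of the family had been seen. MT1XP1 on chromosome 1 had 0 counts in both unstimulated libraries and 4 and 2 at 3 h, and MT2P1 on chromosome 4 had 0 in both and 2 and 3. MT1P1 and MT1P3 had a single count each, in IFNγ replicate 1. The pseudogenes thus held reads at 3 h alone, in numbers far under those of MT1X and MT2A, and whether these reads came from the parent genes was not tested.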
